A study of Homo sapiens with 6 samples.

Results

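The 26 genes described here make cholesterol, control that synthesis, or move sterols and lipoproteins across membranes. They were listed by name with earlier results of these data known, and all 26 were found among the 26372 gene symbols of the deposited table. By role they comprise 7 genes of the mevalonate and isoprenoid steps, 11 genes of the sterol steps, 5 genes of the SREBP control system and 3 genes of sterol transport, lipoprotein uptake and efflux. RNA was sequenced from SH-SY5Y cells, a human neuroblastoma line that resembles immature sympathetic neurons. Cells labelled TDP-43 knockdown (shTDP43, 3 libraries) had been infected with lentivirus carrying a short hairpin RNA against TDP-43 in a U6 vector, and control cells (shNC, 3 libraries) with the same vector carrying the control hairpin. The labels describe a stable knockdown population selected for 2 weeks with 2 µg/mL puromycin and kept in 1 µg/mL, and both groups grew with 15% fetal bovine serum, itself a source of lipoprotein cholesterol. TDP-43, encoded by TARDBP, is an RNA-binding protein that regulates splicing and transcript stability. The libraries of each group are numbered 1 to 3, as in the labels.

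Cholesterol is built from acetyl-CoA by way of mevalonate, short isoprenoid units, squalene and lanosterol. The SREBP transcription factors switch on the genes of this pathway; INSIG proteins keep them in the endoplasmic reticulum while sterols are plentiful, and when sterols run low the escort SCAP carries them to the Golgi, where proteases release the active part. Neurons need cholesterol for membranes and synapses, and the brain makes its own because lipoproteins of the blood do not cross into it.

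Several properties of the libraries bear on the values below. TARDBP stood at 35.99, 33.1 and 34.8 FPKM in shTDP43 and 56.1, 56.2 and 56.6 FPKM in shNC libraries, 61.5% of shNC (log2 fold change -0.69, SE 0.03; limma adjusted p = 2.84e-06), where FPKM is a fragment number scaled by gene length and library size. An exact two-sided permutation test of these 6 values gave p = 0.1, the smallest that 3 against 3 libraries can give. No label says that libraries of a group came from separate cultures or infections, so p-values measure the spread between these libraries, which may be technical, and loss of TDP-43 cannot be told apart from other effects of the hairpin or from a difference between the infected populations. Relative depth, read from the steps between the lowest values, was 1 to 1.11 in shTDP43 and 1.15 to 1.28 in shNC libraries. Noradrenergic neuroblast markers were present, with 5 higher and 5 lower of 11 tested out of 12. Their sums were 2178 to 2233 FPKM in shTDP43 and 2613 to 2632 FPKM in shNC. The largest changes were in CHGB, which fell to 33.6% of shNC, STMN2, which fell to 42.8%, and CHGA, which rose to 175%. DBH, which makes noradrenaline, had 191 ± 3.86 FPKM in shTDP43 and 169.8 ± 1.86 FPKM in shNC (SD, n = 3 each), while TH averaged under 1 FPKM. Mesenchymal markers were lower in 8 of 8 tested of 12 listed, and their sum was 183 to 191 FPKM in shTDP43 and 319 to 326 FPKM in shNC libraries, with none of the 12 at 0 in every library; their part in the results below was not tested. Both tested Schwann cell and glial markers (of 10 listed) were lower, with sums of 9.38 to 10.01 FPKM in shTDP43 and 20.06 to 21.5 FPKM in shNC libraries. Of 11 blood, endothelial and epithelial markers 2 were tested and KRT18 was lower, CD3E and ITGAM were listed at 0 in every library, and sums were 1.03 to 1.79 FPKM in shTDP43 and 3.02 to 3.69 FPKM in shNC. All 10 markers of hepatocytes and steroid-making cells averaged under 1 FPKM, with APOA1 and CYP17A1 listed at 0 in every library.

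Of the 26 cholesterol genes, 8 rose and 2 fell in shTDP43 cells at a limma adjusted p under 0.05, and 16 did not pass. The risers were ACAT2, HMGCS1, MVD and IDI1 of the mevalonate and isoprenoid steps, SQLE, NSDHL and SC5D of the sterol steps, and INSIG1 of the control system. The fallers were SREBF1 and LRP8. All differences were small: the members stood between 81.2% and 139% of their shNC mean. The share of members called in either direction, 38.5%, was close to the 38.1% of all 13263 tested genes that were called, so the number of changed members does not set them apart. By direction, 30.8% of the members rose against 18.5% of all tested genes, and 7.69% fell against 19.6% of all tested genes. The difference between these shares was not tested, because the genes were chosen with earlier results of these data known. The median log2 fold change was 0.03 over the members and 0.0012 over all tested genes; the members' median was 0.01 without shNC 3 and 0.05 without shTDP43 2. The summed level of the 26 genes was 420.3, 412 and 415 FPKM in shTDP43 and 390.2, 396 and 389 FPKM in shNC libraries, with no overlap between groups. In such bulk samples fewer cells of a type and less RNA per cell cannot be told apart.

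**Figure D1:**
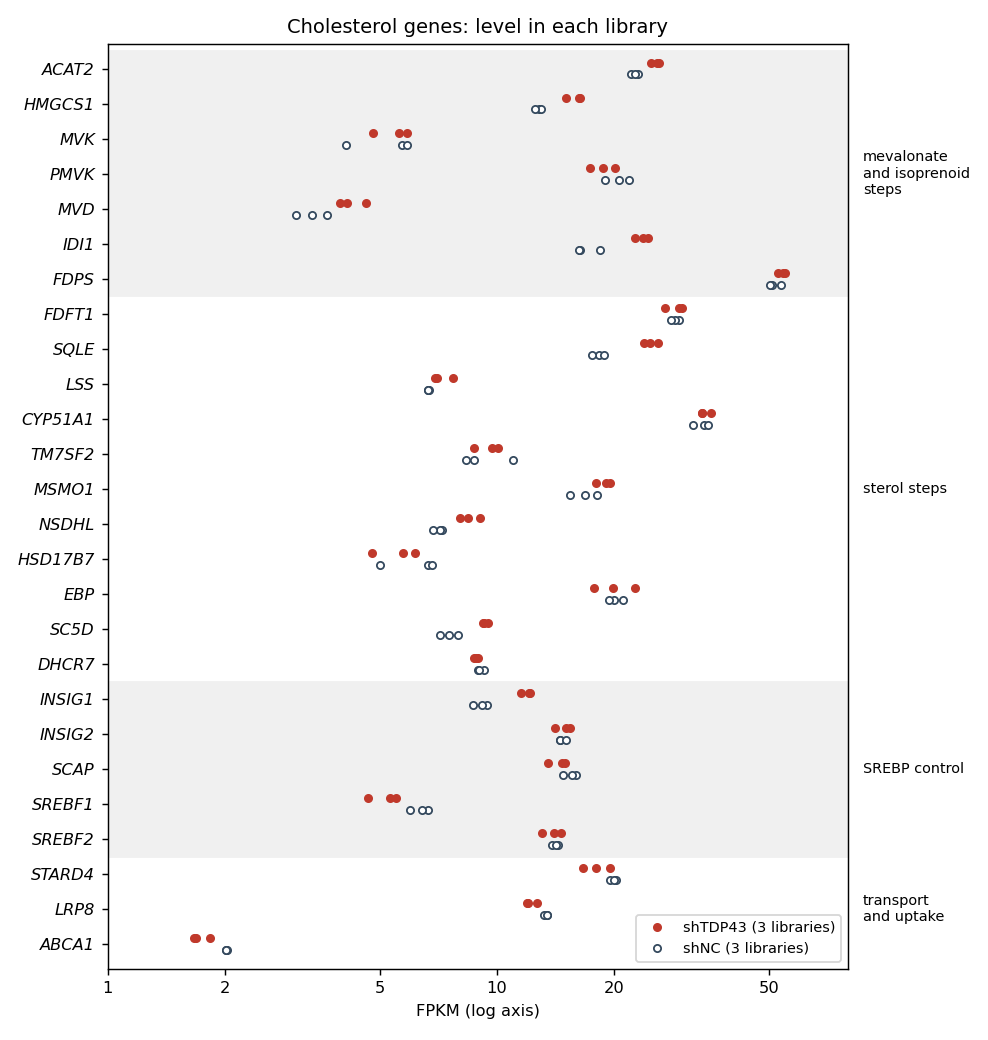
Level of each cholesterol gene in each library, in FPKM on a log axis, by pathway step from top to bottom; filled red points are the 3 shTDP43 libraries and open points the 3 shNC libraries. FDPS is the highest member and ABCA1 the lowest, and the groups are separate for 14 of the 26 genes.

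The 5′ flanks of several members are shown because SREBPs act there, usually beside the factor NF-Y, whose recognition sequence is CCAAT. RefSeq promoter windows on GRCh38.p14, reaching from 250 bases before to 50 bases after an annotated start, were matched by symbol for 23 of the 26 genes; ACAT2, FDFT1 and SQLE were not matched. Each line gives the 180 bases before the outermost annotated start, 5′ to 3′ on the gene's strand: first the risers HMGCS1, NSDHL, SC5D and INSIG1, then SREBF2, which did not pass, then the fallers SREBF1 and LRP8. Capitals mark CCAAT or its reverse complement ATTGG and, in SREBF2, also the sterol regulatory element, which is the run of capitals that comes first in its line.
HMGCS1 (chr5:43313413-43313592, minus strand): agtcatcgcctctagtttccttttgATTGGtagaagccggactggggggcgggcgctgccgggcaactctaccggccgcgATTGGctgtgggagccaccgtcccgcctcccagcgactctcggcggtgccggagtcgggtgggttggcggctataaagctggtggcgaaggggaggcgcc
NSDHL (chrX:152830883-152831062, plus strand): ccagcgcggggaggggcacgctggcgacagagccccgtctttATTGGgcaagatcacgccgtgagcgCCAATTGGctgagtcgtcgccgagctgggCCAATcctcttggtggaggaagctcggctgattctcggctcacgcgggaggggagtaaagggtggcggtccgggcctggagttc
SC5D (chr11:121292591-121292770, plus strand): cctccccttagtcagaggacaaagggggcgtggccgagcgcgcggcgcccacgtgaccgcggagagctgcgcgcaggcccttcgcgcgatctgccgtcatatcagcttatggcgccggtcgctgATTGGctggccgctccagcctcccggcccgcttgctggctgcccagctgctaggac
INSIG1 (chr7:155297698-155297877, plus strand): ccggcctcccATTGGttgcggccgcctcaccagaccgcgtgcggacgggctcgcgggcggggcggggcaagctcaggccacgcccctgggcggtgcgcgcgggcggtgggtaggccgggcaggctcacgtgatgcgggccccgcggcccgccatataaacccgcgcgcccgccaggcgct
SREBF2 (chr22:41832925-41833104, plus strand): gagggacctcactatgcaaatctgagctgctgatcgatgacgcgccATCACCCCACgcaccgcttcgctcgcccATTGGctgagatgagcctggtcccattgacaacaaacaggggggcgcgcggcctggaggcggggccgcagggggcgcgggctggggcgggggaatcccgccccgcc
SREBF1 (chr17:17836987-17837166, minus strand): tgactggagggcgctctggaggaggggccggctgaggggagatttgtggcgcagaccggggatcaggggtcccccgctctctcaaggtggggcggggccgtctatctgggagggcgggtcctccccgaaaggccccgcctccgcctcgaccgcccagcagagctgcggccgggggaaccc
LRP8 (chr1:53328071-53328250, minus strand): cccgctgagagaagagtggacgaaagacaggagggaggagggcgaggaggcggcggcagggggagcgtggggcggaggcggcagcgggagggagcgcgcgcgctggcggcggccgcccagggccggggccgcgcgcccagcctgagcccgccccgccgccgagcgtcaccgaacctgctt
CCAAT, searched on both strands, was found in 16 of the 23 members with a window. It lay in 6 of 6 risers, in 0 of 2 fallers and in 10 of 15 members that did not pass, against 34.6% of all 35116 windows and 43.8% of the 9778 tested genes with a window. In the NSDHL line a CCAAT and an ATTGG share letters, so its 4 matches include an overlapping pair. A gene was counted when any of its windows held a match. IDI1 has 3 windows, of which the outermost held no CCAAT and the other 2 did. HMGCS1 has 2 windows, of which 1 held CCAAT. The sterol regulatory element shown in capitals was searched on both strands in its exact letters. SREBF2 was the 1 member that held these letters, beginning 134 bases before the start. They were found in 0.0456% of all windows and in 0.0716% of tested genes with a window. A looser form, TCACNCCAC, which lies within the longer element in SREBF2, was found in no other member and in 1.13% of windows. Other spellings of the element were not searched, so members without a match are not shown to lack one. GGGCGG, the GC box bound by Sp1, was found in 22 of the 23 members and in 76.8% of tested genes with a window. These matches describe letters in a window, not sites of binding, and their split between risers and fallers was not tested.

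**Figure D2:**
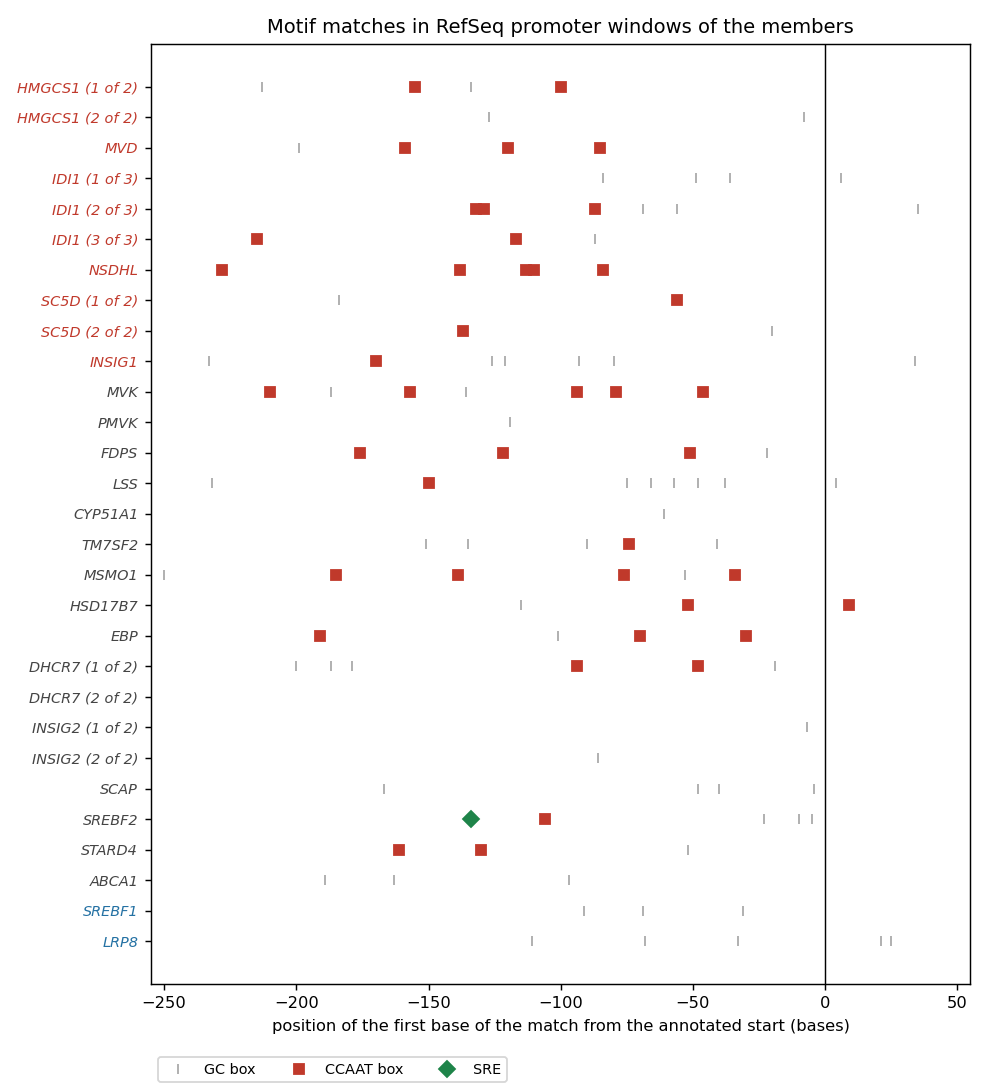
Position of motif matches in each RefSeq promoter window of the 23 members, in bases from the annotated start; red squares are CCAAT, grey ticks GGGCGG and the green diamond the sterol regulatory element of SREBF2, with gene names in red for risers, blue for fallers and grey for genes that did not pass. All 6 risers with a window have a square in at least 1 of their windows, and SREBF1 and LRP8 have none.

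In the mevalonate and isoprenoid steps 4 of 7 genes rose and 0 fell (57.1% called, against 38.1% of all tested genes), with a median log2 fold change of 0.17. ACAT2, the cytosolic thiolase that joins acetyl-CoA units and so opens the pathway, had 26.1, 25.7 and 24.9 FPKM in shTDP43 and 22.1, 23.04 and 22.6 FPKM in shNC libraries. All shTDP43 libraries lay above all shNC libraries, and ACAT2 rose to 113% of shNC (log2 fold change 0.17, SE 0.03; limma adjusted p = 0.00314). ACAT2 overlaps TCP1 and SOD2 on the opposite strand, and whether counting used strand is not stated; neither TCP1 (102% of shNC) nor SOD2 (96.3%) passed the test. HMGCS1, the cytosolic HMG-CoA synthase of the next step, had 16.4, 16.2 and 15.05 FPKM in shTDP43 and 12.9, 13.03 and 12.5 FPKM in shNC libraries. It rose to 124% of shNC without overlap (log2 fold change 0.29, SE 0.04; limma adjusted p = 0.00104).

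MVK, the mevalonate kinase, had 5.88, 5.62 and 4.82 FPKM in shTDP43 and 5.71, 4.102 and 5.89 FPKM in shNC libraries. The groups overlapped, shNC 2 was lower than every other library, and MVK did not pass (limma adjusted p = 0.737; 95% interval of the log2 difference -0.22 to 0.33). MMAB, a cobalamin enzyme gene that lies head to head with MVK and overlaps its start, fell to 72.4% of shNC (4.75 ± 0.237 FPKM in shTDP43 and 6.56 ± 0.0539 FPKM in shNC; limma adjusted p = 0.000637). PMVK, which adds the next phosphate, averaged 18.7 ± 1.38 FPKM in shTDP43 and 20.5 ± 1.48 FPKM in shNC and did not pass (limma adjusted p = 0.161; 95% interval -0.27 to 0.02).

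MVD, the decarboxylase that yields isopentenyl diphosphate, had 4.605, 4.11 and 3.95 FPKM in shTDP43 and 3.05, 3.65 and 3.36 FPKM in shNC libraries. It rose to 126% of shNC without overlap (log2 fold change 0.26, SE 0.08; limma adjusted p = 0.02696). The MVD call did not hold without shNC 1 (limma adjusted p = 0.0856), shNC 3 (0.06303), shTDP43 1 (0.0824) or shTDP43 2 (0.0538). IDI1, the isomerase that turns isopentenyl diphosphate into its reactive partner, had the largest fold change of the 26 genes. It had 23.8, 24.5 and 22.6 FPKM in shTDP43 and 16.4, 18.4 and 16.2 FPKM in shNC libraries, without overlap, and rose to 139% of shNC (log2 fold change 0.45, SE 0.05; limma adjusted p = 0.000353). The antisense RNA IDI2-AS1, which overlaps IDI1, averaged 1.55 ± 0.684 FPKM in shTDP43 and 0.909 ± 0.202 FPKM in shNC and did not pass (limma adjusted p = 0.162).

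FDPS makes farnesyl diphosphate, the branch point to sterols, dolichol, ubiquinone and prenylated proteins, and was the most abundant member per length at 54.1 ± 1.19 FPKM in shTDP43 and 51.7 ± 1.94 FPKM in shNC (SD, n = 3 each). Its groups overlapped and it did not pass (limma adjusted p = 0.146; 95% interval -0.01 to 0.14), though it passed as higher without shNC 1 (0.0454) and with quantile normalization (0.0422). The near-identical copy FDPSP2 averaged 2.27 ± 0.403 FPKM in shTDP43 and 2.07 ± 0.379 FPKM in shNC, and reads may be split between these copies; the antisense RNA RUSC1-AS1 over FDPS averaged 4.71 ± 0.769 FPKM in shTDP43 and 4.61 ± 0.0979 FPKM in shNC.

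In the sterol steps 3 of 11 genes rose and 0 fell (27.3% called, against 38.1% of all tested genes), with a median log2 fold change of 0.03. FDFT1, the squalene synthase that commits farnesyl diphosphate to sterols, had 29.99, 27.1 and 29.5 FPKM in shTDP43 and 29.3, 28.7 and 28.1 FPKM in shNC libraries. The groups overlapped, and FDFT1 did not pass (limma adjusted p = 0.928; 95% interval -0.09 to 0.10). SQLE, the squalene epoxidase and a rate-controlling step of the sterol branch, had 23.96, 25.9 and 24.8 FPKM in shTDP43 and 18.3, 18.8 and 17.5 FPKM in shNC libraries. It rose to 136% of shNC without overlap and had the lowest adjusted p of the 26 genes (log2 fold change 0.43, SE 0.04; limma adjusted p = 0.000113). LSS, which closes the ring system of lanosterol, had 6.96, 7.01 and 7.74 FPKM in shTDP43 and 6.64, 6.71 and 6.67 FPKM in shNC libraries. The LSS groups did not overlap, yet it did not pass (limma adjusted p = 0.154; 95% interval -0.02 to 0.22).

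CYP51A1, the demethylase that acts on lanosterol, averaged 34.3 ± 1.12 FPKM in shTDP43 and 33.6 ± 1.49 FPKM in shNC (SD, n = 3 each) and did not pass (limma adjusted p = 0.614; 95% interval -0.06 to 0.12). TM7SF2, a sterol reductase that follows it, averaged 9.52 ± 0.712 FPKM in shTDP43 and 9.37 ± 1.43 FPKM in shNC, did not pass (limma adjusted p = 0.845; 95% interval -0.19 to 0.25), and shares its first bases with the end of VPS51, which had 103% of shNC. MSMO1, NSDHL and HSD17B7 together take methyl groups off the sterol ring. MSMO1, the oxidase of this set, had 18.01, 19.6 and 19.1 FPKM in shTDP43 and 15.5, 16.8 and 18.1 FPKM in shNC libraries. shNC 3 overlapped the shTDP43 range, and MSMO1, at 113% of shNC, just missed the threshold (limma adjusted p = 0.0533). It passed as higher without shNC 3 (0.0189) or shTDP43 1 (0.0467).

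NSDHL, the dehydrogenase of the set and an X-linked gene, had 9.07, 8.07 and 8.45 FPKM in shTDP43 and 7.24, 7.14 and 6.86 FPKM in shNC libraries. It rose to 120.5% of shNC without overlap (log2 fold change 0.24, SE 0.05; limma adjusted p = 0.00823). HSD17B7, the ketoreductase, averaged 5.56 ± 0.709 FPKM in shTDP43 and 6.16 ± 0.9895 FPKM in shNC with overlapping groups (limma adjusted p = 0.439; 95% interval -0.39 to 0.14). Its near-identical copy HSD17B7P2 averaged 1.51 ± 0.1505 FPKM in shTDP43 and 1.75 ± 0.1296 FPKM in shNC, so the values of HSD17B7 are uncertain. EBP, the sterol isomerase, had 22.7, 17.8 and 19.9 FPKM in shTDP43 and 20.02, 21.1 and 19.5 FPKM in shNC libraries. The shTDP43 libraries of EBP spanned the whole shNC range, and it did not pass (limma adjusted p = 0.935; 95% interval -0.19 to 0.17).

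SC5D, the desaturase of the late pathway, had 9.21, 9.501 and 9.27 FPKM in shTDP43 and 7.16, 7.54 and 7.94 FPKM in shNC libraries. SC5D rose to 124% of shNC without overlap (log2 fold change 0.27, SE 0.05; limma adjusted p = 0.00257). DHCR7, the reductase that completes cholesterol, had 8.93, 8.72 and 8.82 FPKM in shTDP43 and 8.95, 9.27 and 8.98 FPKM in shNC libraries. Every shTDP43 value of DHCR7 lay below every shNC value, but the mean was 97.3% of shNC and it did not pass (limma adjusted p = 0.507; 95% interval -0.12 to 0.05).

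**Figure D3:**
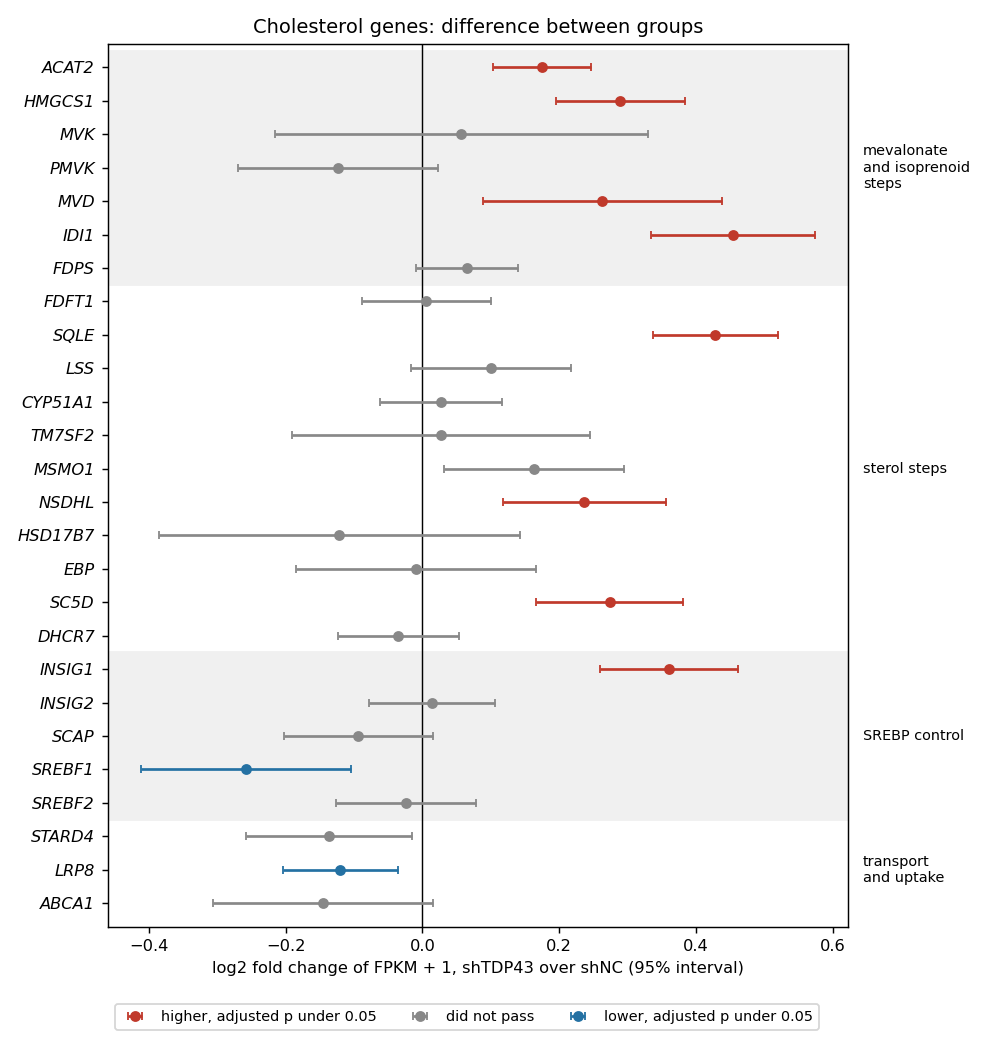
Log2 fold change of FPKM + 1, shTDP43 over shNC, for each cholesterol gene with its 95% interval from the limma fit; red genes passed as higher, blue as lower and grey did not pass. The risers reach from 0.17 for ACAT2 to 0.45 for IDI1, and the interval of MVK, -0.22 to 0.33, is the widest.

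Of the 18 enzymes of both branches 7 rose and 0 fell, and 14 of the 18 differences were positive, against 6676 of the 13263 over all tested genes. The share called in either direction was 38.9%, near the 38.1% of all tested genes. The share that rose was 38.9% against 18.5% of all tested genes, a difference that was not tested. The summed level of the 18 enzymes was 329.1, 321 and 320.9 FPKM in shTDP43 and 295, 301 and 294 FPKM in shNC libraries, 109% of shNC on average. By pathway step ACAT2 and HMGCS1 were neighbouring risers, as were MVD and IDI1, while SQLE, NSDHL and SC5D each lay between members that did not pass. IDI1 stood at 139% of shNC and its successor FDPS at 105%, and SQLE at 136% and its predecessor FDFT1 at 100.5%. Differences between neighbouring genes were not tested.

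Among the 5 control genes 1 rose and 1 fell (40% called, against 38.1% of all tested genes). INSIG1, the sterol-dependent anchor of SCAP and itself an SREBP target, had 11.5, 12.2 and 12.1 FPKM in shTDP43 and 9.41, 9.16 and 8.68 FPKM in shNC libraries. All shTDP43 libraries were above all shNC libraries, and INSIG1 rose to 131% of shNC (log2 fold change 0.36, SE 0.04; limma adjusted p = 0.000481). INSIG2, its paralog, had 15.1, 15.4 and 14.1 FPKM in shTDP43 and 14.5, 14.6 and 15.1 FPKM in shNC libraries. The INSIG2 groups overlapped, and it did not pass (limma adjusted p = 0.811; 95% interval -0.08 to 0.11). SCAP, the escort, averaged 14.4 ± 0.792 FPKM in shTDP43 and 15.4 ± 0.586 FPKM in shNC and did not pass (limma adjusted p = 0.153; 95% interval -0.20 to 0.02).

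SREBF1 encodes the SREBPs that mainly serve fatty acid synthesis and had 4.68, 5.51 and 5.32 FPKM in shTDP43 and 5.999, 6.68 and 6.43 FPKM in shNC libraries. It fell to 81.2% of shNC without overlap (log2 fold change -0.26, SE 0.07; limma adjusted p = 0.0172), but did not pass without shNC 2 (0.0595) or shNC 3 (0.0502). The end of SREBF1 overlaps RAI1 on the opposite strand, which had 104% of shNC and did not pass. SREBF2 encodes the SREBP that mainly serves cholesterol synthesis, carries the sterol regulatory element printed above, and had 13.998, 13.1 and 14.6 FPKM in shTDP43 and 14.4, 13.8 and 14.2 FPKM in shNC libraries. The SREBF2 groups overlapped, and it did not pass (limma adjusted p = 0.703; 95% interval -0.13 to 0.08). MIR33A and MIR33B, the microRNA genes within SREBF2 and SREBF1, were listed at 0 in all 6 libraries of this poly(A)-selected RNA. SREBP proteins and their cleavage were not analysed here.

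All 3 transport genes had lower means in shTDP43, each without overlap between groups, and 1 of them passed (33.3% called, against 38.1% of all tested genes). Among all tested genes 25.4% lay lower in shTDP43 without overlap, and the difference from this share was not tested. LRP8, a receptor for reelin and for lipoprotein particles in neurons, had 12.7, 11.9 and 12.04 FPKM in shTDP43 and 13.4, 13.2 and 13.5 FPKM in shNC libraries. It fell to 91.5% of shNC (log2 fold change -0.12, SE 0.04; limma adjusted p = 0.0335). The LRP8 call did not hold without shNC 1 (0.0873), shNC 2 (0.0664), shNC 3 (0.08797), shTDP43 2 (0.0926) or shTDP43 3 (0.0893). With SREBF1 this left 0 fallers among the 26 genes without shNC 2 or without shNC 3, and 1 without shNC 1 or without shTDP43 2.

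STARD4, which shuttles sterol between membranes in the cytosol, had 18.002, 16.7 and 19.5 FPKM in shTDP43 and 20.2, 19.6 and 19.96 FPKM in shNC libraries. The groups were separate by a small margin at 90.7% of shNC, and STARD4 did not pass (limma adjusted p = 0.0742), though it passed as lower without shTDP43 3 (0.0147). STARD4-AS1, which overlaps the start of STARD4 on the opposite strand, averaged 11.4 ± 0.299 FPKM in shTDP43 and 10.6 ± 0.296 FPKM in shNC and did not pass (limma adjusted p = 0.0898). ABCA1, the pump that loads cholesterol onto apolipoprotein A-I and a target of the sterol-sensing LXR receptors, was the least abundant member, with 1.69, 1.83 and 1.66 FPKM in shTDP43 and 2.02, 2.01 and 2.01 FPKM in shNC libraries. It stood at 85.6% of shNC, without overlap, and did not pass (limma adjusted p = 0.135; 95% interval -0.31 to 0.01).

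**Figure D4:**
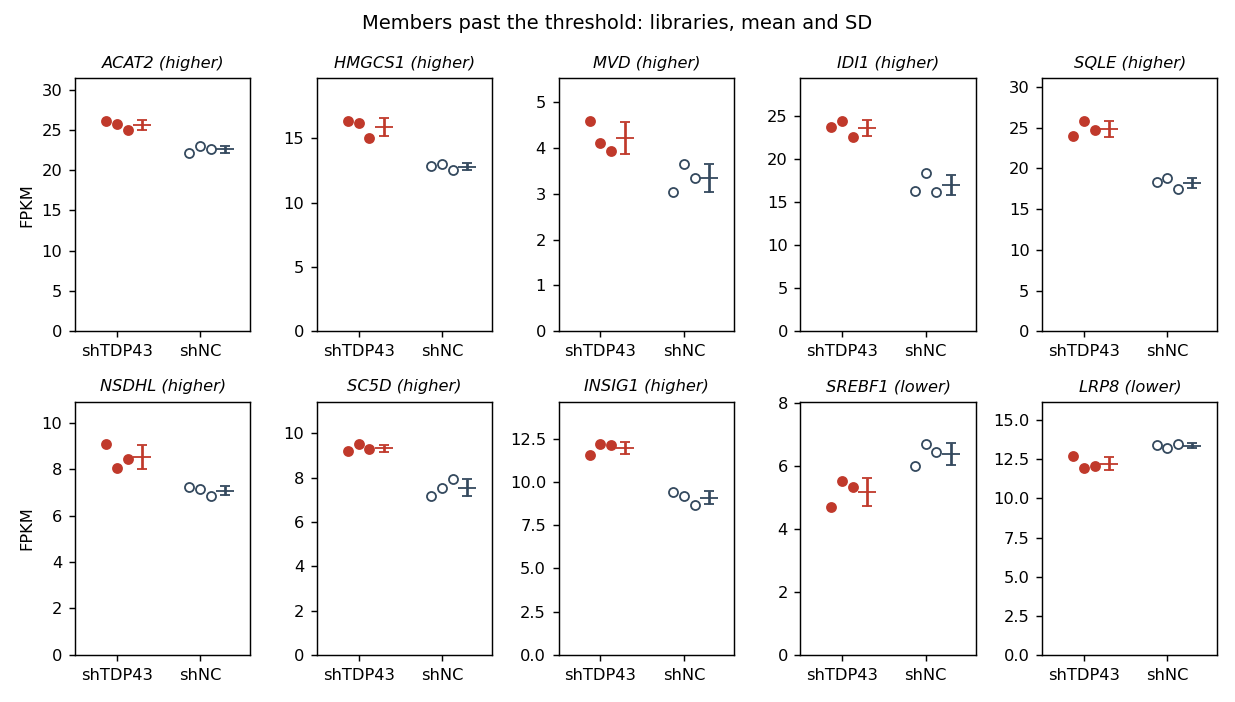
FPKM of the 10 cholesterol genes that passed the test, with shTDP43 on the left and shNC on the right; points are libraries, and the marks beside them the mean and SD over 3 libraries, on axes that start at 0. In each panel the groups are separate, with IDI1 at 139% of shNC and LRP8 at 91.5%.

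Across the 26 genes the groups did not overlap in 14, of which 9 lay higher and 5 lower in shTDP43. Among all tested genes 50.7% did not overlap, 25.3% with shTDP43 higher and 25.4% with shTDP43 lower. The total of 14 of 26 is therefore near the background.

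Other genes of the pathway were counted from 5 lists of 84 genes, of which 78 were tested, 12 rose and 18 fell. Their share called, 38.5%, was near the 38.1% of all tested genes, with 15.4% higher against 18.5% and 23.1% lower against 19.6% of all tested genes. Of 14 tested fatty acid and NADPH genes, which SREBPs also control, 3 rose and 4 fell (21.4% and 28.6%, against 18.5% and 19.6% of all tested genes), with a median log2 fold change of -0.03. FASN, the fatty acid synthase, had 38.9, 38.3 and 38.98 FPKM in shTDP43 and 31.8, 32.9 and 32.2 FPKM in shNC libraries. It rose to 119.9% of shNC without overlap (limma adjusted p = 0.000185). ELOVL6, a fatty acid elongase, rose to 119% of shNC (27.4 ± 0.209 FPKM in shTDP43 and 23.1 ± 0.239 FPKM in shNC; limma adjusted p = 0.000302). SCD5, a stearoyl-CoA desaturase, fell to 67.2% of shNC (8.805 ± 0.543 FPKM in shTDP43 and 13.1 ± 1.01 FPKM in shNC; limma adjusted p = 0.0004402). The fallers of this list numbered 1 when shNC 2, shNC 3, shTDP43 2 or shTDP43 3 was left out, and 2 when shNC 1 or shTDP43 1 was.

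In the non-sterol isoprenoid branch, which uses farnesyl and related diphosphates, 4 of 14 tested genes rose and 2 fell (28.6% and 14.3%, against 18.5% and 19.6% of all tested genes), with a median log2 fold change of 0.07. FNTB, the beta subunit of protein farnesyltransferase, rose to 148% of shNC (4.58 ± 0.352 FPKM in shTDP43 and 3.09 ± 0.594 FPKM in shNC; limma adjusted p = 0.0115). COQ2, of ubiquinone synthesis, fell to 78.6% of shNC (3.22 ± 0.248 FPKM in shTDP43 and 4.09 ± 0.356 FPKM in shNC; limma adjusted p = 0.0221), a call lost without shNC 1 (0.0761), shNC 3 (0.0546), shTDP43 1 (0.0575) or shTDP43 3 (0.0678). TRIT1, which adds an isoprenoid to transfer RNA, rose to 117% of shNC with overlapping groups (13.4 ± 0.898 FPKM in shTDP43 and 11.5 ± 1.101 FPKM in shNC; limma adjusted p = 0.0492), a call lost without shNC 1 (0.138), shNC 3 (0.0985), shTDP43 1 (0.121) or shTDP43 2 (0.142). The risers of this list numbered 1 without shNC 3 and 2 without shTDP43 1. Its fallers numbered 1 in each of the left-out cases just given for COQ2.

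Of 15 genes that cut SREBPs, carry them or degrade proteins of the pathway, 2 rose and 3 fell, a share of 33.3% called against 38.1% of all tested genes, with a median log2 fold change of -0.0086. SEC24D, a coat subunit of the vesicles that leave the endoplasmic reticulum, had 18.96, 17.7 and 17.9 FPKM in shTDP43 and 22.1, 21.9 and 21.03 FPKM in shNC libraries. SEC24D fell to 83.9% of shNC without overlap (log2 fold change -0.24, SE 0.04; limma adjusted p = 0.00155). MBTPS2, the protease that makes the final cut in SREBPs, fell to 85.3% of shNC (21.1 ± 0.718 FPKM in shTDP43 and 24.8 ± 0.5798 FPKM in shNC; limma adjusted p = 0.00174).

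Of 23 tested genes of cholesterol trafficking, esterification, efflux and lipoprotein uptake, 1 rose and 7 fell, with a median log2 fold change of -0.06. The share of the list that was called was 34.8%, against 38.1% of all tested genes, with 4.35% higher against 18.5% and 30.4% lower against 19.6%, and these differences in share were not tested. NPC2, the soluble lysosomal protein that hands cholesterol on for export, had 12.7, 15.6 and 11.3 FPKM in shTDP43 and 20.3, 23.03 and 19.5 FPKM in shNC libraries. NPC2 fell to 63.005% of shNC without overlap (log2 fold change -0.64, SE 0.10; limma adjusted p = 0.00206). RXRA, the partner receptor of LXR, fell to 73.01% of shNC (2.91 ± 0.127 FPKM in shTDP43 and 3.98 ± 0.203 FPKM in shNC; limma adjusted p = 0.00304). OSBPL5, a lipid transfer protein of the oxysterol-binding family, fell to 68.1% of shNC (1.33 ± 0.288 FPKM in shTDP43 and 1.96 ± 0.119 FPKM in shNC; limma adjusted p = 0.0316), a call lost without shNC 1 (0.0708), shNC 2 (0.0595), shNC 3 (0.0924) or shTDP43 3 (0.06904). The fallers of this list numbered 4 without shNC 1, and the risers 2 without shNC 2. Mesenchymal markers were lower in the same libraries, with the sums given above.

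Of 12 accessory enzymes and electron donors, all tested, 2 rose and 2 fell, a share of 33.3% called against 38.1% of all tested genes, with a median log2 fold change of -0.0081. LBR, the lamin B receptor of the inner nuclear membrane, carries the same sterol reductase activity as TM7SF2 and had 41.9, 42.3 and 42.6 FPKM in shTDP43 and 29.98, 31.1 and 31.6 FPKM in shNC libraries. LBR rose to 137% of shNC without overlap (log2 fold change 0.44, SE 0.03; limma adjusted p = 1.39e-05), while TM7SF2 stood at 102% of shNC. HSD17B12, a ketoacyl-CoA reductase of fatty acid elongation, fell to 76.4% of shNC (29.1 ± 0.859 FPKM in shTDP43 and 38.1 ± 1.38 FPKM in shNC; limma adjusted p = 0.000121). IDI2, a paralog of IDI1, rose to 135% of shNC with overlapping groups (5.97 ± 1.11 FPKM in shTDP43 and 4.43 ± 0.405 FPKM in shNC; limma adjusted p = 0.0438), a call lost without shNC 2 (0.106), shNC 3 (0.118), shTDP43 1 (0.126) or shTDP43 3 (0.125), each time leaving 1 riser in the list. IDI2 overlaps IDI2-AS1 and the end of GTPBP4 on the opposite strand, and GTPBP4 was itself higher (limma adjusted p = 0.00555).

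**Figure D5:**
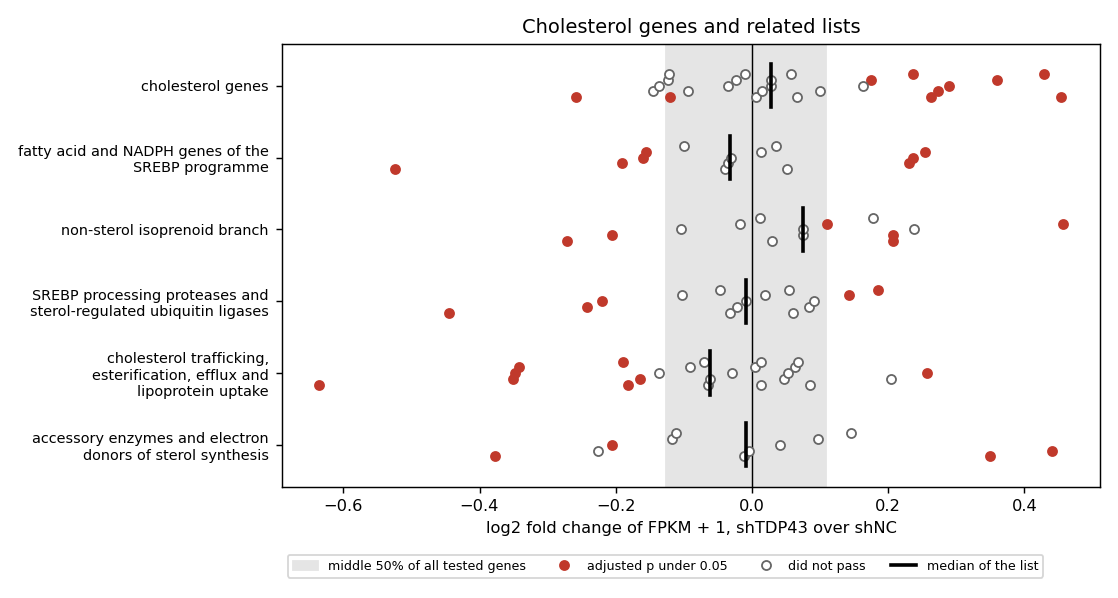
Log2 fold change of FPKM + 1, shTDP43 over shNC, of each tested gene among the cholesterol genes and in 5 related lists; filled points passed the test, open points did not, black lines are list medians and the grey band holds the middle 50% of all tested genes. The cholesterol genes have 8 filled points to the right of 0 and 2 to the left, and the trafficking list has 1 to the right and 7 to the left.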

How the data were processed

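The authors deposited 1 table with an FPKM value per gene symbol in each of the 6 libraries. The submitters' processing notes name TopHat2 2.1.0, Cuffdiff 2.2.1, SAMtools and the build hg38, without roles; per the labels' protocols, poly(A) RNA was made into directional libraries. The sources used here do not give the annotation, strand use, treatment of multiply mapped reads or scaling between libraries. FPKM holds no counts, so no count model was fitted, and absolute depth is unknown.

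Values were analysed as log2(FPKM + 1) in R 4.3.3 with limma 3.58.1: group as the only term, trended variance moderation, two-sided tests and Benjamini-Hochberg adjustment over 13263 genes averaging 1 FPKM or more (13109 fell below). All 26 members passed that filter. Percentages of shNC are ratios of mean FPKM; on the log2 scale the pseudocount understates changes of low genes. Members and lists were chosen with earlier results of these data known. Text names all members, TARDBP and, in each related list, the 3 called genes of largest change, of which 1 is not reported here; genes that overlap or copy these were added from GENCODE after values were seen. Promoter windows are RefSeq's. In simulated data for shTDP43 against shNC (13263 genes), the test found 26 of 50 genes set to a 1.2-fold change, 42 of 50 at 1.5-fold, 49 of 50 at 2-fold and all 50 at 3-fold, with 11 false calls. The simulation had far fewer changed genes than the 5054 called in the data, so shares found in the real fit may differ. Alternatives covered pseudocount, filter, scaling, variance model, replicate block and left-out libraries.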

Additional observations from a re-analysis of the deposited data

How the results depend on the processing

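Over 16 alternatives, ACAT2, HMGCS1, IDI1, SQLE, NSDHL, SC5D and INSIG1, 7 of the 8 risers, passed as higher in each, and risers numbered 7 to 9. Fallers among the members numbered 0 to 2 with libraries left out and 1 with the replicate block, where MVD (limma adjusted p = 0.0573) and LRP8 (0.0599) no longer passed and MSMO1 did (0.0281). Same-numbered libraries correlated at -0.0683, 0.0644 and 0.112 in their deviations from the group means, and 1 of 3 correlated best with its own number, so the numbers were not taken as pairs. With libraries left out, including shNC 1 and shTDP43 3 together, the members' median was 0.0113 to 0.0452, all genes called 3323 to 4385, those higher 1563 to 2093, and related-list genes called lower 10 to 15; fewer libraries are then tested. Without a filter on low values MVD and OSBPL5 no longer passed (0.0581 and 0.0535), and with no variance trend ABCA1 passed as lower (0.0211). MSMO1 passed as higher when genes had to average 5 FPKM (0.0474), and with quantile normalization COQ2 (0.0538), TRIT1 (0.0508) and OSBPL5 (0.0687) no longer passed. Fallers among the 14 fatty acid and NADPH genes numbered 1 without the filter or with the block and 2 with quantile normalization or the 5 FPKM filter, and risers of the non-sterol branch and of the accessory enzymes numbered 2 and 1 without the filter or the variance trend.

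With libraries left out the sign turned for 8 members, none called in any of these settings: log2 fold changes were -0.08097 to 0.188 for MVK, -0.0219 to 0.0489 for FDFT1, -0.00693 to 0.0541 for CYP51A1, -0.0522 to 0.137 for TM7SF2, -0.242 to 0.0203 for HSD17B7, -0.0957 to 0.0719 for EBP, -0.00958 to 0.0474 for INSIG2 and -0.0592 to 0.0155 for SREBF2. The causes were not tested. With 3 libraries a group and no read counts, whether FDPS, MVD, SREBF1 and LRP8 passed depended on the setting. The same held for MSMO1, STARD4 and ABCA1, which did not pass in the main fit. LRP8 passed in the main fit at a smaller log2 fold change of -0.12, so the size of a difference alone did not decide a call.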
